A study of Mus musculus with 4 samples.

Results

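The genes of the mitochondrial ribosome were examined for CUT&RUN peaks in 2 states of mouse medullary thymic epithelium. All protein-coding genes with a symbol of the form Mrpl or Mrps and a number were taken, 78 of 21631 protein-coding genes on chromosomes 1 to 19 and X. Of these, 49 carry Mrpl symbols, given to proteins of the large subunit, and 29 carry Mrps symbols, given to proteins of the small subunit. They lie on 17 chromosomes. A call means that a peak summit of that library lay within 1 kb of either end of the gene's interval, and calls were also made at 5 kb.

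Mitochondrial ribosomes make the few proteins encoded by mitochondrial DNA, all of them core subunits of the respiratory chain and ATP synthase. Their RNA comes from the mitochondrion, but every protein of the particle is encoded in the nucleus, translated in the cytoplasm and imported. The supply of mitoribosomal proteins therefore depends on nuclear promoters spread over the genome, many of which have been described as rich in CpG and in sites for ETS factors, NRF1 and YY1.

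The 4 libraries came from thymus of mice 4 to 5 weeks of age with genotype Trp53-WT, with 2 libraries of mTEClo cells and 2 of mTEChi cells. Thymic stroma was digested, EpCAM+ cells were enriched on magnetic beads and sorted by flow cytometry, and 500000 cells were used per condition. By convention lo and hi refer to surface MHC class II, low in mTEClo cells and high in mTEChi cells, among which are those that express Aire. CUT&RUN directs a protein A-MNase fusion to an antibody on chromatin and sequences the released fragments. The sample titles name p53 as the antibody's target, while the protocol text names BAF155, a subunit of the BAF remodelling complex, and the labels do not settle which was used. No control-antibody library was analysed here. Nothing in the labels ties a replicate to its own mice, so p-values over libraries measure a spread that may be technical.

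The promoters below are those of the 4 genes with the highest-ranked peaks in all 4 libraries, and of Mrpl18, whose peaks lie at an inner start. They are followed by 3 of the genes with no summit within 1 kb of either end in any library. These 3 are not all far from peaks, since Mrps18a had mTEChi summits 1306 and 1403 bp away. Each run holds the 180 bases before the annotated start, 5′ to 3′ on the strand of the gene, from RefSeq on GRCm38.p6 (mm10). Capitals mark exact matches, on either strand, to the letters CCGGAAG (ETS), GATGGCGGC (YY1) or GGGCGG (Sp1, which reads CCGCCC on the other strand), or to the NRF1 palindrome of 10 letters, which occurs here in Mrpl32 alone.

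Mrps14, chr1:160195035-160195214, plus strand: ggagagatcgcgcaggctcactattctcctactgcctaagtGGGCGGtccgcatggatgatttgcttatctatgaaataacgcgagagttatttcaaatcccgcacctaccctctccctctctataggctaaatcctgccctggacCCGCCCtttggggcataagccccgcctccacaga
Mrpl47, chr3:32736756-32736935, minus strand: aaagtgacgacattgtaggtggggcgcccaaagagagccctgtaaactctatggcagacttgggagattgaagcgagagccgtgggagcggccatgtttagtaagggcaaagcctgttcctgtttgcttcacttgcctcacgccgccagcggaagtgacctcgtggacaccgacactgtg
Mrpl32, chr13:14613038-14613217, minus strand: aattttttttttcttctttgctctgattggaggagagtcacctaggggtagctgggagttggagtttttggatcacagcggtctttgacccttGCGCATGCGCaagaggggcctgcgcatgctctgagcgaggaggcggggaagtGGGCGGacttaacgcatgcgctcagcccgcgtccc
Mrpl41, chr2:24975099-24975278, minus strand: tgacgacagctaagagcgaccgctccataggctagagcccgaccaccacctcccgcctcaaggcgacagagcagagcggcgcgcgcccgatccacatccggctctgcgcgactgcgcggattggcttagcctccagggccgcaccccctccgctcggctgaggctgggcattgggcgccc
Mrpl18, chr17:12916092-12916271, minus strand: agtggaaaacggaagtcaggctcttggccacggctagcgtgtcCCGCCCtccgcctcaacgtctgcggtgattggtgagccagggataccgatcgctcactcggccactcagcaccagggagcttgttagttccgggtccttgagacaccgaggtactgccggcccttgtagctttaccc
Mrps18a, chr17:46110824-46111003, plus strand: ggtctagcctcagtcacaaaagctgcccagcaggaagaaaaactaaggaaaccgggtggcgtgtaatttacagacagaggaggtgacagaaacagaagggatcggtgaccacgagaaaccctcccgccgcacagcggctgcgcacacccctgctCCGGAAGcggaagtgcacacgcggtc
Mrpl43, chr19:45006443-45006622, minus strand: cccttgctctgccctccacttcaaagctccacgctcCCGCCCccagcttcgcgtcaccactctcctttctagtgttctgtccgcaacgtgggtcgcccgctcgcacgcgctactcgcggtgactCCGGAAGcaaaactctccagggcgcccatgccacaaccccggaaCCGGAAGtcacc
Mrpl3, chr9:105053088-105053267, plus strand: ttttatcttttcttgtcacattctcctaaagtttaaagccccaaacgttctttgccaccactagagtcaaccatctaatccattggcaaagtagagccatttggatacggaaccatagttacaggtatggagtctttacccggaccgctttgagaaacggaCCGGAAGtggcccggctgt

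The 3 genes without a summit, picked after their values were seen, each hold the ETS letters, and none of the 4 highest-ranked genes does. This contrast holds for the printed genes only. Among the genes next in rank, Mrpl17, Mrps12, Mrpl34, Mrps18b and Mrps21 hold the letters between 250 bases before and 50 after the start. Of the other uncalled genes with an annotated start, Mrpl9 and Mrpl23 have no match, and Mrpl18 has one that begins at -240 bp, outside its printed run.

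The deposited lists hold between 69359 and 89809 peaks, each a summit with 150 bp on either side. Each peak carries a score from the authors' peak caller, never under 2.00, on a −log10 scale of p or q. Scores of different lists are not on a shared scale, so libraries were compared by the rank of a peak within its list, as a percentile where 100 is the top. Scores are printed to describe each peak. A peak list holds no read counts, so depth is unknown, and peaks give no expression level and cannot check the identity of the cells. Of 14 epithelial markers at 1 kb, Aire, H2-Aa and Itgb4 were called in all 4 libraries, and Ciita, Ccl21a and Ackr4 in none. The 6 thymocyte markers gave between 0 and 2 calls per library, the 4 markers of fibroblasts and endothelium 0 or 1, and the 4 of B and myeloid cells none. At 5 kb the thymocyte markers gave 4, 3, 1 and 5 calls over mTEClo 1, mTEClo 2, mTEChi 1 and mTEChi 2. In the same order, the markers of fibroblasts and endothelium gave 4, 1, 2 and 3, and those of B and myeloid cells 2, 2, 2 and 3.

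A peak within 1 kb was found at most mitoribosomal genes in every library. In mTEClo, 55 of the 78 genes were called in replicate 1, or 70.5% (95% Wilson interval 59.6 to 79.5%), where 47.3% of all protein-coding genes were called. In mTEClo replicate 2, 47 genes were called, or 60.3% (49.2 to 70.4%), against 35.7% of all genes. In mTEChi, replicate 1 called 50 genes, or 64.1% (53.03 to 73.85%), and replicate 2 called 43, or 55.1% (44.1 to 65.7%), against 37.4% of all genes in each. The intervals cover counting error only. In each library the share thus stood above that of all genes, and replicate 1 of either state stood above replicate 2.

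At 5 kb every gene of the family had a peak in at least 1 library. The libraries, in the order mTEClo 1, mTEClo 2, mTEChi 1 and mTEChi 2, called 72, 62, 65 and 65 of the 78 genes, against 69.2%, 59.7%, 59.8% and 64.1% of all genes. Of all genes, 14.5% had none in any library. In all 4 libraries 47 genes were called, or 60.3%, against 36.0% of all genes.

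**Figure D1:**
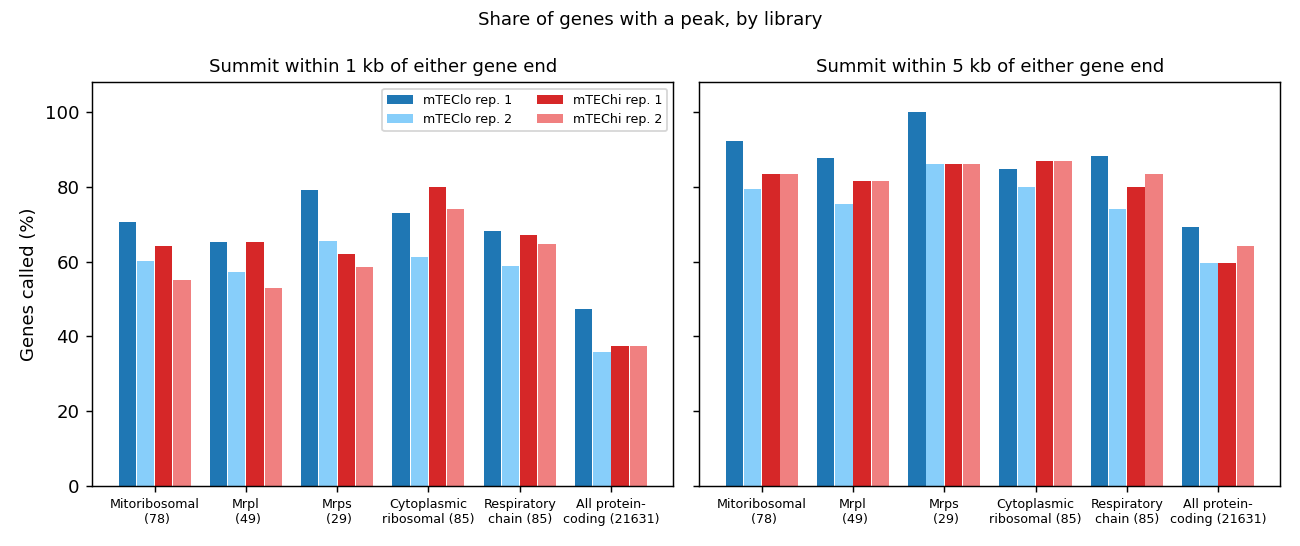
Share of genes called (%, y axis) per library for the mitoribosomal genes, their Mrpl and Mrps symbol groups, 2 related gene families and all protein-coding genes, with 1 bar per library and no error bar, at 1 kb (left) and 5 kb (right). The mitoribosomal bars stand at 55.1% to 70.5% at 1 kb, above the 35.7% to 47.3% of all genes.

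At 1 kb, 23 of the 78 genes (29.5%) were called in all 4 libraries, against 17.1% of all genes. A further 18 were called in 3 libraries, 20 in 2 and 9 in 1. The remaining 8 (10.3%) were called in none, where 34.0% of all genes were. The genes called in 3 libraries were Mrpl10, Mrpl11, Mrpl21, Mrpl22, Mrpl28, Mrpl30, Mrpl35, Mrpl37, Mrpl42, Mrpl44, Mrpl46, Mrpl54, Mrpl58, Mrps5, Mrps16, Mrps27, Mrps34 and Mrps36. The product of Mrps36 is now assigned to the alpha-ketoglutarate dehydrogenase complex, so the rule by symbol takes in a gene outside the ribosome. Those called in a single library were Mrpl15, Mrpl16, Mrpl24, Mrpl27, Mrpl33, Mrpl36, Mrpl53, Mrps10 and Mrps25. The interval of Mrpl24 begins before its annotated start, and within 1 kb of that start it had a summit in all 4 libraries. Conversely Mrps2, among the 23 called everywhere, had no summit within 1 kb of its annotated start in any library.

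**Figure D2:**
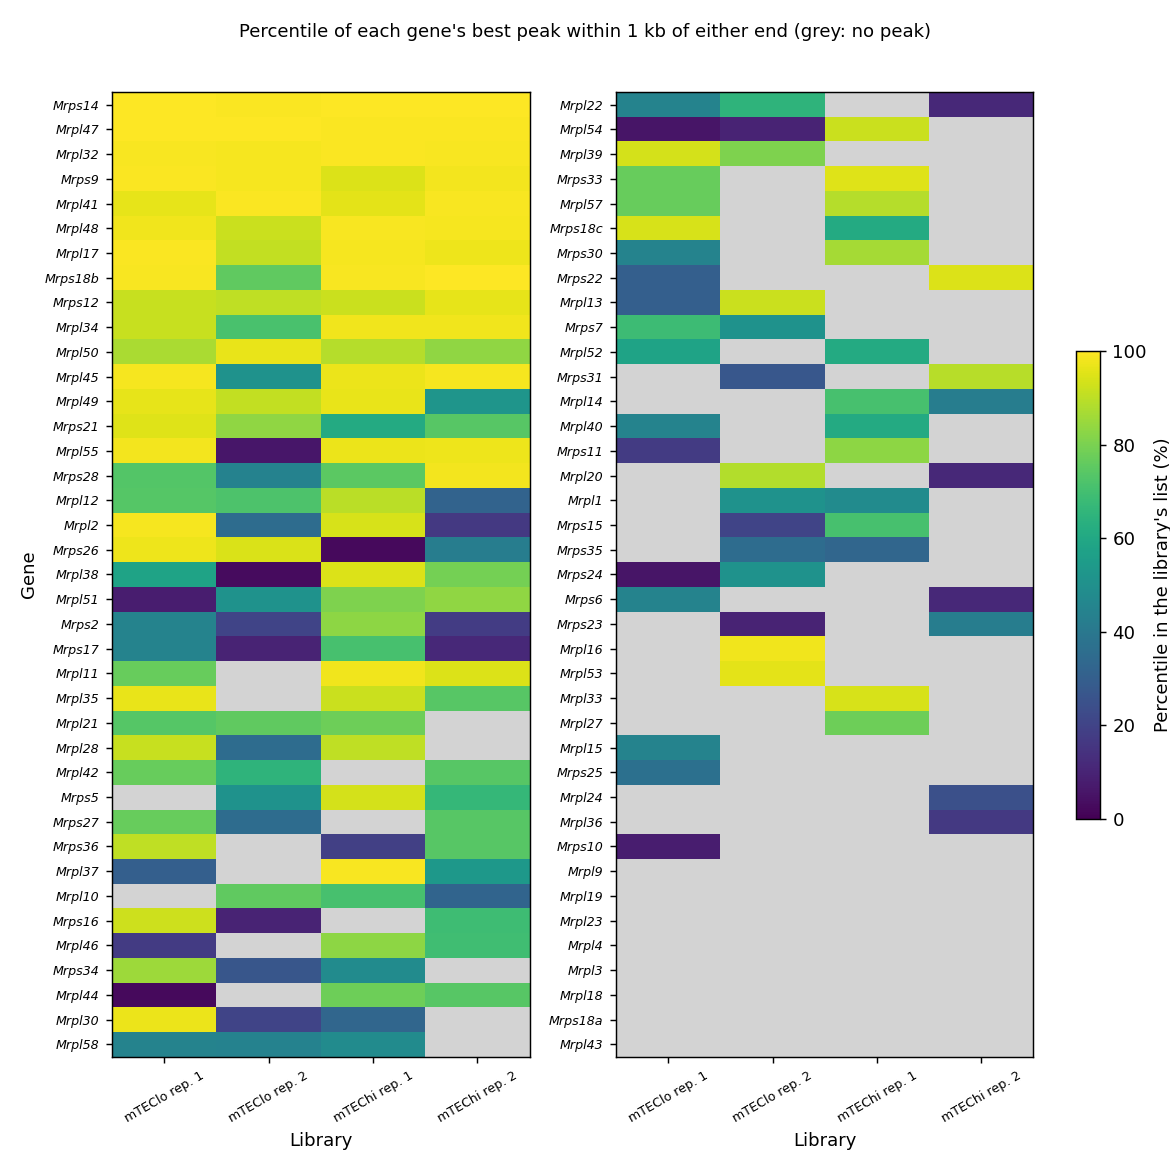
Percentile (colour, %) of the best peak within 1 kb of either end for each of the 78 genes (rows) in each library (columns), with grey for no peak, ordered by the number of libraries with a call and then by mean percentile. Mrps14, Mrpl47 and Mrpl32 are near the top of all 4 lists, and the 8 all-grey rows are the genes with no summit within 1 kb.

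Mrps14, which encodes a protein of the head of the small subunit, had the highest-ranked peak of the family. It scored 44.3 in mTEClo replicate 1, 15.3 in mTEClo replicate 2, 98.6 in mTEChi replicate 1 and 50.6 in mTEChi replicate 2. These were percentiles of 99.98, 99.58, 99.98 and 99.98 of their lists. The summits lay 104, 111, 101 and 101 bp before the start, so the 4 libraries placed them within 10 bp of each other. The gene occupies chr1:160195215-160201186 on the plus strand, and the summits fall in the run printed above, between its pair of Sp1 matches.

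Mrpl47, a large subunit protein near the exit of the peptide tunnel, came next. Its peaks scored 21.4 and 15.7 in mTEClo against 30.6 and 14.4 in mTEChi, percentiles of 99.61, 99.62, 99.50 and 99.29, with the summits 160, 173, 135 and 107 bp before its start at chr3:32727497-32736755. An end of Ndufb5, a subunit gene of the first respiratory complex, lies 302 bp from that start, so these peaks cannot be assigned to 1 gene of the pair.

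Mrpl32, a large subunit protein that is cut by the mitochondrial m-AAA protease before it joins the ribosome, had scores of 15.7 and 11.0 in mTEClo against 33.1 and 12.8 in mTEChi. Its summits lay 114, 133, 111 and 117 bp before the start, a spread of 22 bp. The NRF1 letters in the printed run begin 87 bases before the start. An end of Psma2, which encodes a proteasome subunit, lies 205 bp from that of Mrpl32.

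Mrpl41, a large subunit protein that has also been studied as a growth suppressor acting with p53, had scores of 10.5 and 13.8 in mTEClo against 11.0 and 12.8 in mTEChi. Its percentiles were 96.4, 99.4, 95.8 and 99.1 in the same order, so the states overlapped. Its summits lay 47, 37, 34 and 53 bp before the start, and an end of Pnpla7 lies 892 bp from it. None of the 4 motifs is matched in its printed run.

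The other 8 genes of highest rank were Mrps9, Mrpl48, Mrpl17, Mrps12, Mrpl50, Mrps18b, Mrpl34 and Mrps21. Mrps9, a conserved protein of the small subunit, scored 18.1 and 11.0 in mTEClo and 9.71 and 9.89 in mTEChi, at percentiles of 99.4, 98.7, 94.7 and 98.3, so both mTEClo values were above both mTEChi values. Its summits were at -17, -71, -125 and 14 bp from the start. Mrpl17 scored 18.9 and 6.36 in mTEClo and 18.4 and 8.53 in mTEChi, at percentiles of 99.4, 90.6, 98.4 and 97.6, so replicate 1 was the higher in each state.

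Mrps12, a conserved protein next to the decoding centre, had scores of 7.74 and 6.28 in mTEClo against 7.85 and 7.23 in mTEChi. The percentiles were 91.4, 90.5, 91.99 and 96.2, with both mTEChi values above both mTEClo values. An end of Sars2, the mitochondrial seryl-tRNA synthetase gene, lies 136 bp away. Mrpl50, found only in mitochondrial ribosomes, scored 6.79 (mTEClo 1), 8.37 (mTEClo 2), 6.68 (mTEChi 1) and 4.88 (mTEChi 2). Percentiles for Mrpl50 stood at 87.2, 96.7, 88.9 and 83.3 in turn, so by rank its states overlapped. Mrpl34 scored 7.76 and 4.79 in mTEClo and 15.8 and 9.20 in mTEChi, at percentiles of 91.5, 71.3, 97.9 and 97.9, so the states did not overlap. Mrps21 scored 9.28 and 5.46 in mTEClo and 4.08 and 4.34 in mTEChi, at percentiles of 95.1, 83.5, 61.1 and 73.8, so again the states did not overlap, in the other direction.

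Mrpl48, a protein of the central protuberance of the large subunit, differed from these in position. Its best summits lay 850, 659, 849 and 805 bp downstream of the annotated start, inside the gene, with scores of 12.01, 6.57, 21.7 and 10.6 over mTEClo 1, mTEClo 2, mTEChi 1 and mTEChi 2. An end of Rab6a, a small GTPase gene, lies 726 bp from the start of Mrpl48, so these peaks may be read with either gene. Among the 23 genes called everywhere, the best summits of the 4 libraries spread over a median of 175 bp, from 10 to 6728 bp. In 8 genes the spread was under 100 bp, and in 3 it exceeded 1000 bp, since different ends of the gene carried the best peak.

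The 3 paralogues of the Mrps18 family behaved differently from each other. Mrps18b had scores of 15.4 and 4.93 in mTEClo against 22.7 and 19.5 in mTEChi, where the mTEClo replicate 2 value is for a peak at the far end of the gene, 6339 bp from the start. That library also had a lower-ranked summit 80 bp from the start, at a score of 4.39. An end of Ppp1r10 lies 72 bp from Mrps18b. Mrps18c was called in replicate 1 of each state, with scores of 8.63 in mTEClo and 4.08 in mTEChi, and in neither replicate 2. Mrps18a, whose product sits in the large subunit despite its symbol, was the only Mrps gene with no summit within 1 kb: the nearest lay 3513 and 3487 bp away in mTEClo and 1306 and 1403 bp away in mTEChi.

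Of the other members chosen by name, Mrpl12, whose product also binds the mitochondrial RNA polymerase, scored 5.48 and 4.93 in mTEClo and 6.99 and 3.05 in mTEChi. These are not scores of 1 shared peak. In replicate 1 the best summits lay at the far end of the gene, 4758 bp (mTEClo) and 4902 bp (mTEChi) after the start. In replicate 2 they lay at 20 bp (mTEClo) and -353 bp (mTEChi) from the start. Mrpl11 was called in 3 libraries, with a score of 5.66 in mTEClo replicate 1 and 16.0 and 6.61 in mTEChi. In mTEClo replicate 2 the nearest summit was 1197 bp away, just outside the window. Mrpl58, a peptidyl-tRNA hydrolase built into the large subunit, scored 4.10 and 3.85 in mTEClo and 3.62 in mTEChi replicate 1, with no call in mTEChi replicate 2. The mTEClo summits lay 104 and 137 bp after the start, and the mTEChi summit 9474 bp after it, past the far end. Mrps30, a second protein with a small subunit symbol that sits in the large subunit, was called in replicate 1 of each state, at 4.10 in mTEClo and 6.13 in mTEChi.

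The 8 genes with no summit within 1 kb were Mrpl3, Mrpl4, Mrpl9, Mrpl18, Mrpl19, Mrpl23, Mrpl43 and Mrps18a. Mrpl43 was the farthest from any peak in mTEClo, with the nearest summits 47318 and 74041 bp away, against 29432 and 3851 bp in mTEChi. At Mrpl3, which lies close to the catalytic centre of the large subunit, the nearest summits were 3959, 42546, 26061 and 23709 bp away over mTEClo 1, mTEClo 2, mTEChi 1 and mTEChi 2. Mrpl9 had a summit at 1736 bp in mTEClo replicate 2 alone, with the others at least 7957 bp away.

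Mrpl18, singled out after its values were seen, belongs to this group by rule only. Its interval (chr17:12911345-12917787, minus strand) begins outside the start given in the promoter table, at 12916091, and from that start the summits lay at -173, -121, -190 and -171 bp. Their scores of 16.5 and 8.37 in mTEClo against 39.7 and 18.9 in mTEChi put them at percentiles of 99.15, 96.73, 99.74 and 99.62. Measured from the start, Mrpl18 would thus rank among the highest genes of the family. An end of Tcp1, a chaperonin subunit gene, lies 238 bp from that start, so these peaks may be read with either gene. The summits fall inside or within 10 bp of the printed run.

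Counts of genes did not separate the 2 states. The share called at 1 kb was 65.4% ± 7.25 in mTEClo and 59.6% ± 6.35 in mTEChi (mean ± SD, n = 2 libraries each), and the difference of 5.77 percentage points, next to 4.14 for all genes, was within the spread of the libraries (two-sided exact permutation test, p = 0.667). The smallest p of this design is 0.333, so the test cannot reach 0.05. At 5 kb the shares were 85.9% ± 9.07 and 83.3% ± 0 (SD, n = 2 each; exact permutation p = 1). With only the peaks at or above the median score of each list, which through ties kept 44906 and 38209 mTEClo peaks and 42794 and 56094 mTEChi peaks, the difference turned to -8.33 points at 1 kb and -14.1 points at 5 kb, and without mTEClo replicate 1 it turned to -3.85 points at 5 kb. Among 8 comparisons of the states made with this test, the lowest p adjusted by Benjamini-Hochberg was 0.889.

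Where a gene was called also hardly moved. Over the 23 genes called in all libraries, the median distance from the gene end to the nearest summit was 114 and 105 bp in mTEClo and 125 and 117 bp in mTEChi, against 106, 119, 115 and 117 bp for all genes called in all 4. The difference of means was -11.5 bp (exact permutation p = 0.333, the smallest the design allows), under the width of a peak.

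Peak rank over the same 23 genes had a median percentile of 96.4 and 83.5 in mTEClo against 94.7 and 97.4 in mTEChi. The means were 90.0 ± 9.18 and 96.0 ± 1.89 (SD, n = 2 each), a difference of -6.06 (exact permutation p = 0.667). The low value belongs to mTEClo replicate 2. For the 3700 genes called everywhere, that library was also the lowest, at 88.6, where the others stood at 94.6, 95.4 and 94.9. Leaving a library out also changed the genes, to those called in all the libraries kept. Without mTEClo replicate 2 the difference turned to 6.07 over 29 genes, at 95.1 in mTEClo and a mean of 89.0 in mTEChi. Without mTEChi replicate 1 it turned to 0.170 over 27 genes.

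Gene by gene, 9 of the 23 had both mTEChi percentiles above both mTEClo percentiles (39.1%, where 25.1% of the 3700 genes did), and 4 had the reverse order (17.4%, against 14.2%). Mrps26, a small subunit protein found only in mitochondrial ribosomes, was the widest on the mTEClo side. Its score was 11.3 and 7.15 in mTEClo and 2.02 and 3.34 in mTEChi, or percentiles of 97.3, 94.3, 2.45 and 42.2. The best summits were at -49 and -45 bp from the start in mTEClo and at -78 and -844 bp in mTEChi.

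On the mTEChi side, Mrpl38, of the central protuberance, had percentiles of 57.9 and 2.90 in mTEClo against 94.7 and 79.2 in mTEChi. Its best summit in mTEChi replicate 2 lay near the other end of the gene from the rest, so the summits spread over 6236 bp. Mrpl51 had percentiles of 8.06 and 51.2 in mTEClo against 80.9 and 83.3 in mTEChi. Its best summits were at 399 and -25 bp from the start in mTEClo and at -177 and -138 bp in mTEChi. Mrps28 had percentiles of 73.3 and 44.3 in mTEClo against 74.9 and 98.2 in mTEChi. In Mrps28 the closest values of the states were 73.3 and 74.9, while in Mrps26, Mrpl38 and Mrpl51 a wider gap lay between them. These 4 were named because, among the 13 genes whose states did not overlap, their mean percentiles differed most between states, so the values are a description.

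**Figure D3:**
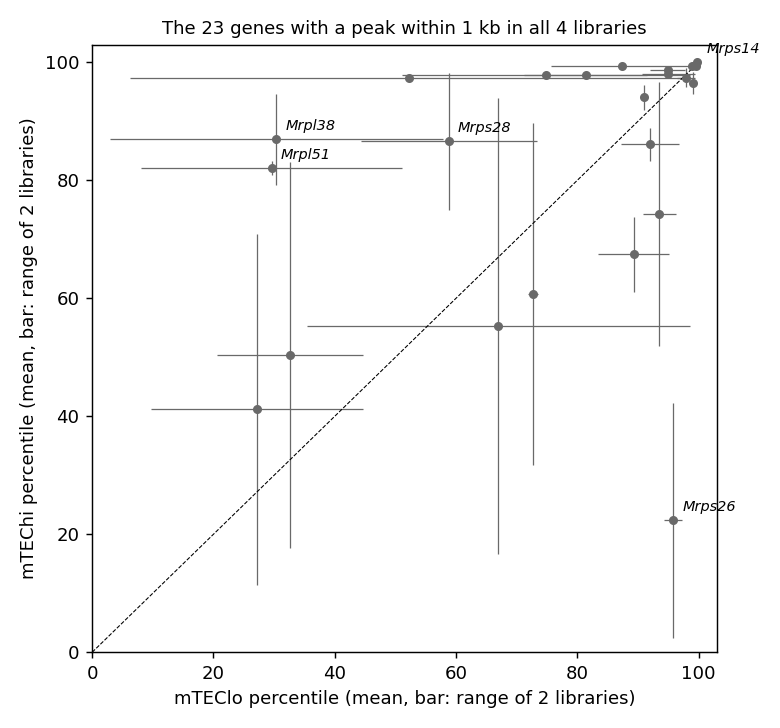
Mean percentile of the best peak within 1 kb in mTEChi (y axis, %) against mTEClo (x axis, %) for the 23 genes called in all 4 libraries, with bars that span the 2 libraries of a state and a dashed line of equality. Mrps26 lies far below the line, and Mrpl38, Mrpl51 and Mrps28 lie above it. The best peak of a gene may lie at different places in different libraries.

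Few genes were called in a single state. At 1 kb, both mTEClo libraries called 37 genes (47.4%, against 27.2% of all genes), and both mTEChi libraries called 32 (41.0%, against 25.5%). Calls in the mTEClo pair with none in mTEChi were found at 4 genes, or 5.13% of the family against 4.08% of all genes. The reverse was found at 1 gene, or 1.28% against 1.94%. By replicate number instead of state, 7 genes had calls in replicate 1 of each state with none in replicate 2 (8.97%, against 3.53% of all genes), and 3 the reverse (3.85%, against 1.42%). Leaving out a library loosens the rule: the mTEClo count became 6 without mTEClo replicate 1, 7 without mTEClo replicate 2, 10 without mTEChi replicate 1 and 8 without mTEChi replicate 2. The mTEChi count became 7 without mTEClo replicate 1 and 3 without each of the others.

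Mrpl39, a large subunit protein found only in mitochondrial ribosomes, was the clearest of the mTEClo group. Its summits lay 78 and 66 bp before the start at chr16:84718281-84735244, with scores of 8.58 and 5.43, and the nearest mTEChi summits were 10299 and 20991 bp away. The NRF1 letters lie 125 bases before its start. Mrps24, a small subunit protein, had low scores of 2.73 and 3.94 in mTEClo, with mTEChi summits 14240 and 17503 bp away.

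For the other 2 genes of the mTEClo group the peaks of the states were nearer to each other. Mrps7, a conserved protein of the small subunit head, scored 5.12 and 3.94 in mTEClo, and mTEChi summits stood 1295 and 1335 bp away, just past the limit. The 5.12 peak of replicate 1 lay 4453 bp after the start, past the far end, and the 3.94 peak of replicate 2 lay 446 bp before the start. In mTEClo replicate 1 a lower-ranked summit, scored 3.09, also lay 240 bp before the start. Mrpl13 had its nearest summits 658 and 62 bp from an end in mTEClo, and 2567 and 4572 bp away in mTEChi. Its best mTEClo peaks, scored 3.62 and 6.57, lay near opposite ends of the gene, at chr15:55557970 and chr15:55533726. The mTEChi gene was Mrpl14, a conserved large subunit protein, with scores of 4.56 and 3.34 and summits 112 and 82 bp after its start, while the nearest mTEClo summits were 2848 and 7192 bp from an end. The Mrpl14 interval begins before the annotated start, and measured from that start the best mTEChi summits were at 583 and 513 bp, with scores of 12.4 and 5.93. An end of Tmem63b lies 6 bp from that start, so the Mrpl14 peaks may be read with either gene. Other genes also have an end near Mrps7 (Mif4gd, 118 bp) and Mrpl13 (Mtbp, 92 bp).

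At 5 kb each state's pair of libraries called 58 genes (74.4%), against 51.3% of all genes for mTEClo and 48.1% for mTEChi. There the mTEClo group was Mrpl39, Mrps24 and Mrpl15 (3.85% of the family, against 3.53% of all genes) and the mTEChi group was Mrpl33 alone (1.28%, against 2.23%). By replicate number, 2 genes had calls in replicate 1 alone of each state (2.56%, against 2.77%) and 0 in replicate 2 alone (against 2.06%). Mrpl33 had mTEChi summits 140 and 1201 bp from an end and mTEClo summits 7555 and 7498 bp away. Mrpl15 had mTEClo summits 133 and 4658 bp away and mTEChi summits 21672 and 15747 bp away. Without each library in turn, in the order mTEClo 1, mTEClo 2, mTEChi 1 and mTEChi 2, the mTEClo count was 5, 4, 8 and 6 and the mTEChi count 9, 3, 2 and 1.

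Peaks gathered at the start of the genes. An annotated start was at hand for 69 of the 78 genes, and 65 of these are longer than 2 kb, so that their ends can be told apart. In these 65, a summit lay within 1 kb of the start in 49, 37, 44 and 36 genes over mTEClo 1, mTEClo 2, mTEChi 1 and mTEChi 2, and within 1 kb of the other end in 10, 4, 7 and 8. Among all 15243 such genes the start was called in 49.3%, 36.1%, 39.3% and 37.0%, and the other end in 9.87%, 7.99%, 6.95% and 8.73%. The start was thus the end called more often in every library, in the mitoribosomal genes as in all genes.

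Counting from the start alone, 51, 40, 46 and 38 of the 69 genes were called (73.9%, 58.0%, 66.7% and 55.1%), against 45.2%, 33.2%, 36.0% and 34.1% of 17274 genes. In all 4 libraries 22 were called (31.9%, against 16.9%), and 6 in none (8.70%, against 39.4%). The best summit was within 200 bp of the start in 42 of 51 genes in mTEClo replicate 1 and 30 of 40 in replicate 2, and in 37 of 46 and 25 of 38 in the mTEChi replicates. These are 82.4%, 75.0%, 80.4% and 65.8%, where all genes with a called start gave 63.5%, 61.7%, 66.1% and 61.1%.

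The median summit position from the start was -12 and -38 bp in mTEClo and -71.5 and -68.5 bp in mTEChi. Downstream of the start were 47.1% and 45.0% of the mTEClo summits and 32.6% and 34.2% of the mTEChi summits. All genes had 40.0% and 36.8% downstream in mTEClo and 29.1% and 35.5% in mTEChi. Median positions for all genes were -44 and -59 bp in mTEClo and -83 and -68 bp in mTEChi. In both measures the 2 states did not overlap, in the mitoribosomal genes and in all genes alike, and the difference was not tested.

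**Figure D4:**
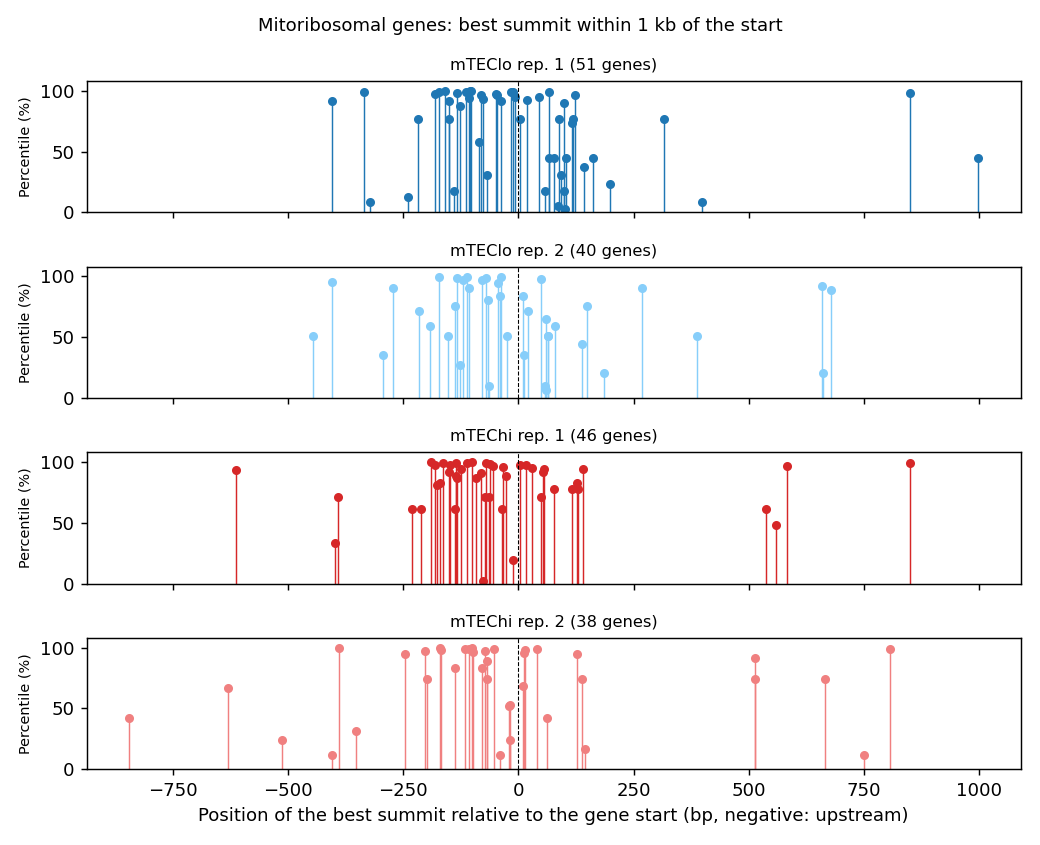
Percentile (y axis, %) of the best summit within 1 kb of the start against its position (x axis, bp, negative upstream) for each called gene, with 1 panel per library and 1 stem per gene. Most stems stand within 200 bp of the start, 42 of 51 in mTEClo replicate 1 and 25 of 38 in mTEChi replicate 2.

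Many of these genes share their start region with another gene, so a peak there cannot be assigned to either. Another protein-coding gene had an end within 1 kb of the start in 33 of the 69 genes (47.8%), against 14.1% of 17274 genes. For either end it was 44 of 78 genes (56.4%), against 25.1% of all genes. The best summit of a called gene was also within 1 kb of another gene's end in 27 of 55, 24 of 47, 28 of 50 and 22 of 43 cases over mTEClo 1, mTEClo 2, mTEChi 1 and mTEChi 2.

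The family contains such a pair within itself. Mrpl46, a protein of the central protuberance, and Mrps11, of the small subunit platform, have starts 42 bp apart on chromosome 7. They shared their best summit, scored 3.17, in mTEClo replicate 1 and another, scored 5.59, in mTEChi replicate 1, and neither gene had a start peak in replicate 2 of either state.

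Sharing a region went with the share called. Among the 44 genes with a neighbour, 72.7%, 65.9%, 70.5% and 61.4% were called over mTEClo 1, mTEClo 2, mTEChi 1 and mTEChi 2, against 65.9%, 52.3%, 57.1% and 55.0% of all genes with a neighbour. In all 4 libraries 14 of them were called (31.8%), next to 31.5% of all genes with a neighbour. Among the 34 genes without a neighbour, 67.6%, 52.9%, 55.9% and 47.1% were called, against 41.1%, 30.2%, 30.8% and 31.5% of all such genes, and 9 were called in all 4 (26.5%, against 12.3%). For calls in all 4 libraries, the mitoribosomal genes with a neighbour thus stood at the level of all genes with a neighbour, and those without one stood above theirs.

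The Mrpl and Mrps symbol groups were read apart. The Mrps group includes Mrps18a and Mrps30, whose products sit in the large subunit, and Mrps36, so it is not the small subunit alone. At 1 kb, 23 and 19 of the 29 Mrps genes were called in mTEClo (79.3% and 65.5%) and 18 and 17 in mTEChi (62.1% and 58.6%), a difference of means of 12.1 points with no overlap (exact permutation p = 0.333, the smallest possible, adjusted p = 0.889). The 49 Mrpl genes gave 32 and 28 calls in mTEClo (65.3% and 57.1%) and 32 and 26 in mTEChi (65.3% and 53.1%), and the states overlapped (exact permutation p = 1). All genes gave 47.3%, 35.7%, 37.4% and 37.4%, a difference of 4.14 points. Whether the symbol groups differ from each other or from all genes in this was not tested. All 4 libraries called 14 of the Mrpl genes (28.6%) and 9 of the Mrps genes (31.0%), against 17.1% of all genes, and no library called 7 Mrpl genes and 1 Mrps gene.

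Promoter letters were searched in the 300 bases from 250 before to 50 after the start, on both strands, for 69 mitoribosomal genes and 17274 genes in all. Exact matches only were counted, each motif by itself, and matches of 2 motifs overlapped in 2 of the 69 genes. The ETS letters CCGGAAG were in 24 promoters (34.8%), against 12.1% of all. The YY1 letters GATGGCGGC were in 5 (7.25%), against 1.52%: Mrpl35, Mrpl37, Mrps11, Mrps18a and Mrps27. The NRF1 palindrome was in 3 (4.35%), against 1.35%: Mrpl9, Mrpl32 and Mrpl39.

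Other letters were near or below the general level. GGGCGG (Sp1) was in 34 promoters (49.3%, against 46.9%), CCAAT in 27 (39.1%, against 39.6%), the CRE letters TGACGTCA in 2 (2.90%, against 2.36%) and TATAAA in 4 (5.80%, against 13.4%). The p53 consensus half-site, a pattern of 10 letters, was matched in 4 promoters, those of Mrpl2, Mrpl44, Mrps9 and Mrps17 (5.80%, against 7.32%). The mitoribosomal promoters held a median of 21 CpG, against 14 in all promoters, at a median GC content of 58.3% and 56.3%.

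The letters were also counted by the number of libraries that called the start, with no test. The ETS letters were in 11 of the 34 mitoribosomal promoters whose start was called in 3 or 4 libraries (32.4%) and in 6 of the 13 called in 0 or 1 (46.2%). Over all promoters the shares were 21.4% and 6.60%. The Sp1 letters were in 19 of 34 (55.9%) and 3 of 13 (23.1%), next to 69.4% and 32.3% of all promoters. The median number of CpG was 22 and 20 in the 2 groups of mitoribosomal promoters and 22 and 5 in those of all promoters. All 4 promoters with the p53 half-site were among the 34, and these counts are too small to be more than a description.

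Other genes of mitochondrial protein synthesis were read from fixed lists. Of 5 mitoribosomal proteins with other symbols, 4, 2, 4 and 3 were called at 1 kb over mTEClo 1, mTEClo 2, mTEChi 1 and mTEChi 2. Aurkaip1 and Ptcd3 were called in all 4 libraries, and Dap3, a small subunit GTP-binding protein, in mTEChi replicate 1 alone.

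Of 15 translation factors, 10, 8, 10 and 8 were called, and Tufm, Mtrf1l, Taco1 and Lrpprc were called in all 4. Tufm, the mitochondrial elongation factor that brings tRNA to the ribosome, scored 7.90 and 9.65 in mTEClo and 8.46 and 5.91 in mTEChi. Mtrf1l, a release factor, scored 25.1 (mTEClo 1), 17.4 (mTEClo 2), 50.6 (mTEChi 1) and 23.7 (mTEChi 2). Its peaks ranked at percentiles of 99.80, 99.71, 99.84 and 99.78 in turn, so by rank its states overlapped. Guf1, a GTPase of elongation, was called in both mTEClo libraries alone, at 12.7 and 6.57. The initiation factors Mtif2 and Mtif3 were called in both mTEChi libraries alone, at scores between 2.77 and 3.83 and percentiles between 19.1 and 60.0. At 5 kb both were called in all 4 libraries. Of all genes at 1 kb, 4.08% were called in the mTEClo pair alone and 1.94% in the mTEChi pair alone.

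Of 21 assembly factors, 14, 10, 12 and 10 were called, and Nsun4, Noa1, Mpv17l2, Mettl17 and Tfb1m were called in all 4. Mpv17l2, an inner membrane protein needed for large subunit assembly, scored 20.5 (mTEClo 1), 5.41 (mTEClo 2), 41.2 (mTEChi 1) and 15.0 (mTEChi 2). Within these lists its peaks ranked at percentiles of 99.55, 80.73, 99.76 and 99.35 in turn, so by rank the states overlapped. Tfb1m, which methylates the small subunit RNA, scored 9.28 and 6.57 in mTEClo and 13.1 and 11.7 in mTEChi, at percentiles of 95.1, 92.01, 96.96 and 98.8, so its states did not overlap. Fastkd2, Mtg2, Mrm2, Ybey and Eral1 were called in none. Mterf4 was called in both mTEClo libraries alone. Rbfa was called in both mTEChi libraries alone at 1 kb, and in all 4 libraries at 5 kb. In all 4 libraries were 5 of the 21 assembly factors (23.8%) and 4 of the 15 translation factors (26.7%), next to 29.5% of the mitoribosomal genes and 17.1% of all genes. In no library were 23.8% of the assembly factors and 13.3% of the translation factors, next to 10.3% and 34.0%.

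The most similar families were described beside the mitoribosomal genes, with no test between families. The 85 cytoplasmic ribosomal protein genes were called in 72.9% and 61.2% in mTEClo and 80.0% and 74.1% in mTEChi, and 41 were called in all 4 (48.2%). Their share was 10.0 points lower in mTEClo (exact permutation p = 0.333, the smallest possible, adjusted p = 0.889), where that of the mitoribosomal genes was 5.77 points higher and that of all genes 4.14 points higher. The 85 subunit genes of the respiratory chain were called in 68.2%, 58.8%, 67.1% and 64.7%, and 34 in all 4 (40.0%).

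Peak ranks were described in the same way. Over the genes called in each library, the median percentile of the mitoribosomal genes was 77.0, 64.9, 88.9 and 73.8, against 77.0, 75.7, 83.1 and 79.4 for all genes. The cytoplasmic ribosomal genes stood at 91.5, 86.4, 93.8 and 95.4, and the respiratory chain genes at 88.7, 75.7, 90.6 and 83.3. Over these genes the mitoribosomal median was thus the lowest of the 3 families in each library. It was above that of all genes in mTEChi replicate 1 alone. This order depended on the gene set. Over the genes called in all 4 libraries, the mitoribosomal medians were 96.4, 83.5, 94.7 and 97.4 in the same library order. Respiratory chain genes then stood at 94.8, 88.6, 93.7 and 89.2, and all genes at 94.6, 88.6, 95.4 and 94.9. There the mitoribosomal median was the lowest of the 3 families in mTEClo replicate 2 alone. It was above that of all genes in mTEClo replicate 1 and mTEChi replicate 2.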

How the data were processed

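One peak list per library, made by CUT&RUN, was used for 2 mTEClo and 2 mTEChi libraries, with groups and replicate numbers from the sample titles. Per the submitters' processing notes, the tools were MACS2 2.2.7.1, Bowtie2 2.2.9, SAMtools 1.9 and Picard, on mm10. Sources used here give neither their settings nor any control. Peaks were deposited with a score that is −log10 of a p-value or a q-value from the authors' peak caller, without saying which. Between 38.7% and 51.1% of a list's peaks fall in its 4 commonest scores, so ranks hold many ties, which were given their mid-rank. Lists were made per library and not pooled.

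Gene intervals came from a RefSeq table of GRCm38.p6, and starts and sequences from RefSeq promoters of the same assembly. Starts are missing for Mrpl4, Mrpl13, Mrpl15, Mrpl19, Mrpl38, Mrpl54, Mrps28, Mrps34 and Mrps35. Of the list genes, 1 (Mtrfr) matched no entry. The members and lists were chosen with earlier results of these data known. The rule for named genes took 12 genes called in all 4 libraries by their lowest percentile, genes called in 1 state alone, the 4 with the widest gap between states in mean percentile among those whose states do not overlap, and 9 genes by name. Alternatives were other windows, peak subsets, gene models, each library left out, and the replicate number as a block. The calling step was tested on simulated data. Computations ran in Python 3.11.15 (pandas 2.3.3, numpy 2.4.6, matplotlib 3.10.9, scipy 1.17.1).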

Additional observations from a re-analysis of the deposited data

How the results depend on the processing

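Differences are mTEClo minus mTEChi. With peaks at or above the median score of their list, the difference in the share called turned to -8.33 points at 1 kb and -14.1 at 5 kb, 14 genes were called in all 4 libraries, 2 in mTEClo alone and 4 in mTEChi alone at 1 kb, and 9 in mTEChi alone at 5 kb. Ties made this subset unequal, with 44906, 38209, 42794 and 56094 peaks in mTEClo 1, mTEClo 2, mTEChi 1 and mTEChi 2. With the 10000 highest peaks, which with ties were 10018, 13230, 10645 and 10559, the share turned to -2.56 points at 1 kb and -1.92 at 5 kb, the median percentile to 0.197 and the median distance to 22.5 bp. The count in all 4 libraries was then 8, with 2 in mTEClo alone at 1 kb and 3 in mTEChi alone at 5 kb. With a window of 500 bp the share difference was 13.5 points (58.3% against 44.9%), the percentile difference was -3.19, the distance turned to 3 bp and 0 genes were called in mTEChi alone, and with 2 kb there were 4. Windows of 3 and 10 kb in place of 5 kb gave 2 and 0 genes in mTEChi alone, and lists of equal length gave 3 at either window and a percentile difference of -3.67. The gene body with its margin gave a share difference of 2.56 points. Leaving out each library in turn, the share difference ran from 0.641 to 10.9 points at 1 kb and from -3.85 to 8.97 at 5 kb, the percentile from -19.7 to 6.07 (0.170 without mTEChi replicate 1), and the distance from -28.5 to -11.5 bp. The 5 kb share turned to -3.85 without mTEClo replicate 1. The count in all libraries used ran from 25 to 29, and the percentile and distance were taken over those genes. At 1 kb, mTEClo alone ran from 6 to 10 genes and mTEChi alone from 3 to 7, and at 5 kb from 4 to 8 and from 1 to 9. The causes were not tested, other than that fewer peaks or libraries were used.

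The labels tie same-numbered libraries by their number alone, and whether they share a preparation is unknown. Their deviations over 1 kb calls correlated at 0.018 over all genes and 0.154 over the mitoribosomal genes, which cannot settle it. With the replicate block the exact p was 0.5 for the 1 kb share difference of 5.77 points and for the distance, and 1 for the 5 kb share and the percentile, where 0.5 is the smallest possible. No p-value could pass 0.05 under any of these settings, so they say nothing about stability. Read depth is unknown and limits what a missing call means.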
